A study of Mus musculus with 15 samples.

Results

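The cytosolic ribosomal protein genes were measured in A20 parental cells and in 4 Foxp1 CRISPR clones. They were taken as the protein-coding genes whose mouse symbol is Rpl or Rps with a number and at most 1 letter, together with Rplp0, Rplp1, Rplp2 and Rpsa. This gave 80 of the 41388 genes counted, 31 encoding proteins of the small (40S) subunit and 49 of the large (60S) subunit. Rps4l and Rpl6l have symbols of the same form, but these 2 genes are annotated as pseudogenes and were left out. Of the 80 genes, 77 passed the filter on low counts and were tested. The other 3 were Rpl3l, with 0 to 8 counts per library, and Rpl10l and Rpl39l, with 0 counts in all 15 libraries. These are tissue-restricted relatives of Rpl3, Rpl10 and Rpl39.

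Ribosomal proteins assemble with ribosomal RNA in the nucleolus. The small subunit reads the mRNA and the large subunit joins the amino acids. Their mRNAs are among the most abundant in growing cells, including lymphoma cells, and the subunits need most of their proteins in equal numbers. Most of these mRNAs begin with a terminal oligopyrimidine (TOP) tract, a run of C and T bases in the DNA strand that matches the mRNA, through which mTOR signalling and the protein Larp1 set their translation and stability. Mammalian genomes also hold many processed pseudogenes of ribosomal protein genes, that is, DNA copies of their mRNAs, which make short reads hard to assign.

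A20 cells come from a B cell lymphoma that arose in a BALB/c mouse. RNA was sequenced from 5 lines, the wild-type A20 parental line, the clones E6.1 and E6.2 with a mutation in exon 6 of Foxp1, and the clones E7.1 and E7.2 with a mutation in exon 7. No drug or other agent was given in any line, as far as the labels say. Foxp1 encodes a forkhead transcription factor, and each clone was grown from 1 sorted cell, so the mutation and the clone cannot be told apart. Each line was collected 3 times, from separate passages. All 15 libraries were fitted together, so p values rest on the spread between passages of a line, pooled over the 5 lines. They do not measure a spread between clones. Levels are given as CPM (counts scaled to a common library size), normalized with TMM factors. The Foxp1 transcript stood at 102, 166 and 147 CPM in parental cells, from 99.5 to 109 CPM in the 6 libraries of the E6 clones, and at 41.7, 64.2 and 64.3 CPM in E7.1 and 37.1, 39.6 and 52.3 CPM in E7.2. It fell in both E7 clones. The log2 fold change was -1.29 (adjusted p = 0.00688) for E7.1 and -1.69 (adjusted p = 0.00116) for E7.2. It was not called in E6.1 (-0.41, adjusted p = 0.765) or E6.2 (-0.39, adjusted p = 0.417) by the quasi-likelihood test of edgeR, adjusted after Benjamini and Hochberg, which also gives every adjusted p below unless DESeq2 is named. The E7.1 call was lost without replicate 2 of the parental line (adjusted p = 0.0533).

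Total counts ranged from 26328054 to 39181530 per library. All 6 B lineage markers lay above 10 CPM in every library. Of 12 markers of T cells, myeloid cells, stroma and epithelium, 10 had a mean under 1 CPM, and Cd3e was at 0 counts. A level of 3 counts corresponded to between 0.0751 and 0.118 CPM.

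In parental cells the ribosomal protein mRNAs were among the most abundant of all genes. Per kb of annotated exon, 31 of them lay among the 100 highest genes and 72 among the 1000 highest, and their median was 431 CPM per kb against 5.90 for all 13904 genes tested. The highest levels were those of Rps27 (ENSMUSG00000090733, chromosome 3 of GRCm38, 90212725 to 90213615), Rps24 and Rpl4. Rps27 had 4805 ± 1015 CPM per kb (SD, n = 3), Rps24 had 2828 ± 662 and Rpl4 had 2793 ± 485. All are structural proteins of the ribosome.

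The lowest levels per kb among the genes tested were those of Rpl29, Rpl21 and Rps2. Rpl29 had 0.674 ± 0.183 CPM per kb, Rpl21 had 2.44 ± 0.346 and Rps2 had 17.8 ± 2.70 (SD, n = 3). The lowest and highest of the 77 genes thus differed 7125-fold in level per kb. Of the genes tested, 14 lay above 1000 CPM per kb, 55 between 100 and 1000, and 8 below 100. Read pairs that aligned at several places were left out of the deposited counts, and 55 of the 80 genes have at least 1 annotated pseudogene named after them, 247 in all. The levels of such genes are therefore uncertain, and a low level does not show that little mRNA was present. The length was the sum of all annotated exons, so a gene with long, rarely used exons reads lower per kb.

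**Figure D1:**
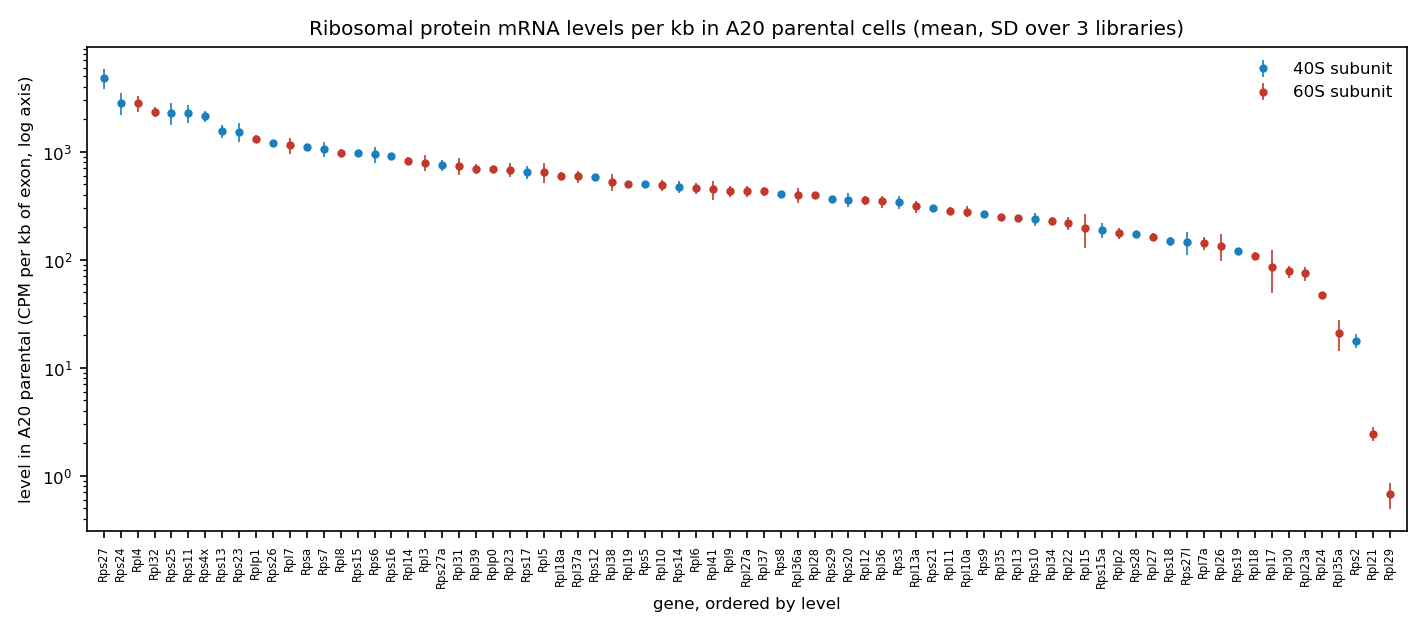
Levels of the 77 tested ribosomal protein mRNAs in A20 parental cells, in CPM per kb of exon on a log axis, ordered by level; points are means and bars are the SD over 3 libraries, blue for the 40S and red for the 60S subunit. Levels fall mostly in small steps from Rps27 at 4805 to Rpl24 at 47.0 CPM per kb, and Rpl35a, Rps2, Rpl21 and Rpl29 are among the genes below Rpl24.

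Neighbours in this order mostly did not differ beyond their spread. The mean ± SD of 70 of the 76 neighbouring pairs overlapped. The 6 that did not were Rps27 over Rps24, Rps4x over Rps13, Rpl23a over Rpl24, Rpl24 over Rpl35a, Rps2 over Rpl21, and Rpl21 over Rpl29, as the plot of levels per kb shows. The median level was 585 CPM per kb for the 40S genes and 396 for the 60S genes.

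The bases around the transcription start are shown for some of the genes, since the pyrimidine tract lies there. Each line gives 15 bases before and 15 bases from the annotated start on, on the coding strand, from the RefSeq table (GRCm38.p6). Capitals mark CTTTC or CTTTT. The first 6 genes carry such a run. Rps27l, which has 2 annotated starts, Rps2 and Rpl26 carry none. Rpsa, Rps15 and Rpl11, not shown, carry none either. Their log2 levels over the 15 libraries each correlated with the median of the other genes at r = 0.99. The same r held for Rpl12, not shown, which carries both CTTTT and CTTTC. For the first 6 genes r ran from 0.91 (Rps6) to 0.98 (Rpl13a). It was -0.44 for Rps27l, 0.19 for Rps2 and 0.78 for Rpl26. Whether r goes with the run was not tested.
Rps27: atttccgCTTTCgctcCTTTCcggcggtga
Rpl13a: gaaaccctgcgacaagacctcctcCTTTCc
Rps6: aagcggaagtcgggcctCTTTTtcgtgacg
Rplp2: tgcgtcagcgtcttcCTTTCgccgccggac
Rpl38: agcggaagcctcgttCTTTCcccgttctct
Rpl35: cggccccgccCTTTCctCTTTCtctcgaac
Rps27l: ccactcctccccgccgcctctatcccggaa
Rps27l: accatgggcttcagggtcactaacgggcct
Rps2: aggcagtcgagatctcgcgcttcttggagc
Rpl26: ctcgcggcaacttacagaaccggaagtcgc
In the order printed, the windows lie at chr3:90213634-90213663 (minus strand), chr7:45128731-45128760 (minus), chr4:86857353-86857382 (minus), chr7:141447636-141447665 (plus), chr11:114668565-114668594 (plus), chr2:39005117-39005146 (minus), chr9:66946071-66946100 (plus), chr9:66946398-66946427 (plus), chr17:24720048-24720077 (plus) and chr11:68901551-68901580 (plus).

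The table held promoters of 60 of the 80 genes. CTTTC or CTTTT stood on the coding strand of this 30-base window in 21 of these 60 genes (35%), against 8.11% of all 27025 genes in the table. On the opposite strand it stood in 3 genes (5%), against 7.41%. Over the whole promoter window, on either strand, CCGGAAG (the core bound by ETS factors) was present in 25 of the 60 genes (41.7%) against 9.93% of all genes. AAGATGGC (YY1) was present in 5 (8.33%) against 3.19%, and GGGCGG (Sp1) in 36 (60%) against 38.2%. GTAAACA, a forkhead core, was present in 1 (1.67%) against 4.05%. None of the motifs contains another, and a match describes letters only.

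The 15 libraries differed in how much of their RNA was ribosomal protein mRNA, and the widest differences lay within lines. The 80 genes took 6.37%, 6.51% and 7.47% of the counts in parental cells. They took 7.77%, 7.28% and 7.22% in E6.1 and 4.81%, 6.47% and 11.5% in E6.2. In E7.1 they took 4.79%, 7.77% and 6.5%, whereas E7.2 had 7.09%, 6.99% and 13.5%. The 95% Wilson interval of each share was within 0.0109 percentage points, which covers counting error only. The high libraries, replicate 3 of E6.2 and replicate 3 of E7.2, stood above all other libraries, which ranged from 4.79% to 7.77%.

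The summed level of the 80 genes was 2.27 times the mean of the other two E6.2 libraries in replicate 3 of E6.2, and 2.41 times that of the other two E7.2 libraries in replicate 3 of E7.2. In each of the pair, 76 of the 77 tested genes lay above both other libraries of the line (98.7%, against 40.8% and 45.3% of all tested genes). The exception in both was Rps27l. The ratio to the mean of the other two libraries had a median of 2.25 in E6.2 and reached 3.91 for Rpl23a. It had a median of 2.37 in E7.2 and reached 3.41 for Rpl36. In these bulk libraries, a different mixture of cells and a different amount of RNA per cell cannot be told apart.

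**Figure D2:**
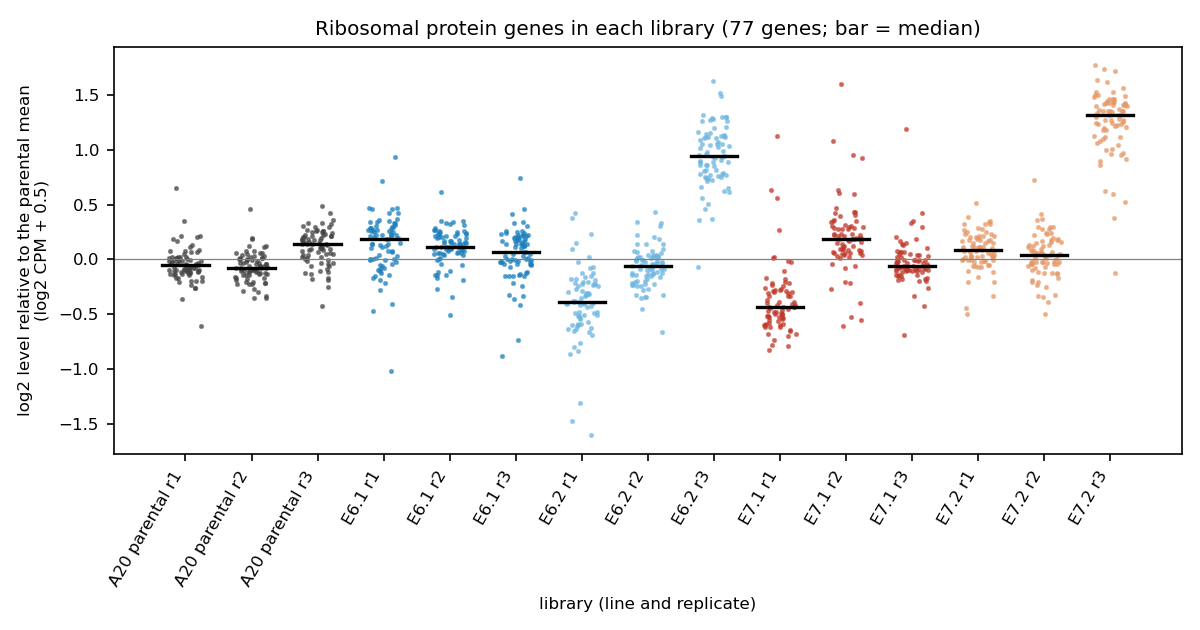
Level of each of the 77 tested ribosomal protein genes in each of the 15 libraries, on the log2 scale relative to the gene's mean in the 3 parental libraries (pseudocount 0.5 CPM); 1 point per gene, bars are medians. The medians of E6.2 replicate 3 (0.95) and E7.2 replicate 3 (1.33) stand above the other 13, which lie between -0.43 and 0.19.

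Other measures of these libraries moved as well. Mitochondrial protein mRNAs took 9.99% of the counts in replicate 3 of E7.2 but 2.21% in replicate 3 of E6.2, against 0.798% to 5.67% in the other 13. The TMM factor was 0.906 in E6.2 replicate 3 and 0.826 in E7.2 replicate 3, against 0.966 to 1.05 elsewhere. Other genes with under 1000 bases of exon had a median deviation from the line mean of 0.16 in E6.2 replicate 3 and 0.10 in E7.2 replicate 3 on the log2 scale, against -0.12 to 0.06 elsewhere. Pax5, a B lineage transcription factor, had 36.3, 25.7 and 10.1 CPM in E6.2 and 39.96, 44.4 and 16.8 CPM in E7.2, lowest in the high library of each line, against 24.2 to 32.3 CPM in parental cells. Ebf1, another, had 18.4, 15.6 and 10.2 CPM in E6.2 and 19.8, 20.9 and 19.7 CPM in E7.2. The sum of all 6 B lineage markers went the other way, highest in the high library of each line. It was 2930, 2851 and 3627 CPM in E6.2 and 3502, 3637 and 4322 CPM in E7.2. The part of these measures in the level of the ribosomal protein genes was not tested. The next widest deviations were low ones. Replicate 1 of E6.2 had 49 genes more than 0.5 log2 units below its line mean, which the high replicate 3 raises, against 5.66% of all tested genes, and replicate 1 of E7.1 took the smallest share of all.

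Across replicates of a line, with both high libraries included, the ribosomal protein genes varied more than most genes and moved together. In those libraries the median deviation from the line mean was 0.79 (E6.2) and 0.83 (E7.2) log2 units. The SDs below are not given without them. The SD of the ribosomal protein genes between replicates had a median of 0.49 on the log2 scale (0.20 to 0.82). It was 0.26 for all tested genes and 0.22 for the 2297 tested genes above 100 CPM. Of all tested genes, 12.2% exceeded 0.49. Once each library was centred on the median of the 77 genes, their SD had a median of 0.13. Only 12 genes then exceeded 0.25. The log2 level of 62 genes correlated over the 15 libraries with the median of the other genes at r above 0.9 (median 0.96). Without both high libraries, 15 genes did so over 13 libraries (median 0.82). These libraries share one normalization, and the r values describe the pattern without a test.

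The 2 subunits kept their proportion. The summed CPM of the 40S genes over that of the 60S genes lay between 0.805 and 0.876 in all 15 libraries, while the sum of both ranged 3.41-fold, or 1.56-fold without the pair. Rpsa, the 40S protein that also serves as a laminin receptor, followed the other genes most closely once centred (SD 0.05). It was at 2083, 2025 and 2104 CPM in parental cells, 2476, 2371 and 2122 in E6.1 and 1559, 1897 and 3752 in E6.2. E7.1 had 1527, 2427 and 2062 CPM and E7.2 had 2402, 2301 and 4770 CPM.

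The widest spread between replicates was that of Rpl23a and Rpl36 (SD 0.82 each on the log2 scale) and Rpl13a (0.67). Rpl13a, a 60S protein known for a separate role in silencing translation of inflammatory mRNAs, had 591, 881 and 2287 CPM in E6.2 and 868, 790 and 2784 in E7.2, against 850 to 1079 in parental cells. Rpl36 had 49.8, 159 and 348 CPM in E6.2 and 98.6, 111 and 358 in E7.2, against 124 to 159 in parental cells. Rpl23a had 20.2, 79.2 and 195 CPM in E6.2 and 64.8, 61.6 and 161 in E7.2, against 54.3 to 72.4 in parental cells. In each of the 3 genes, replicate 1 of E6.2 lay below and both replicates 3 lay above the parental range.

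**Figure D3:**
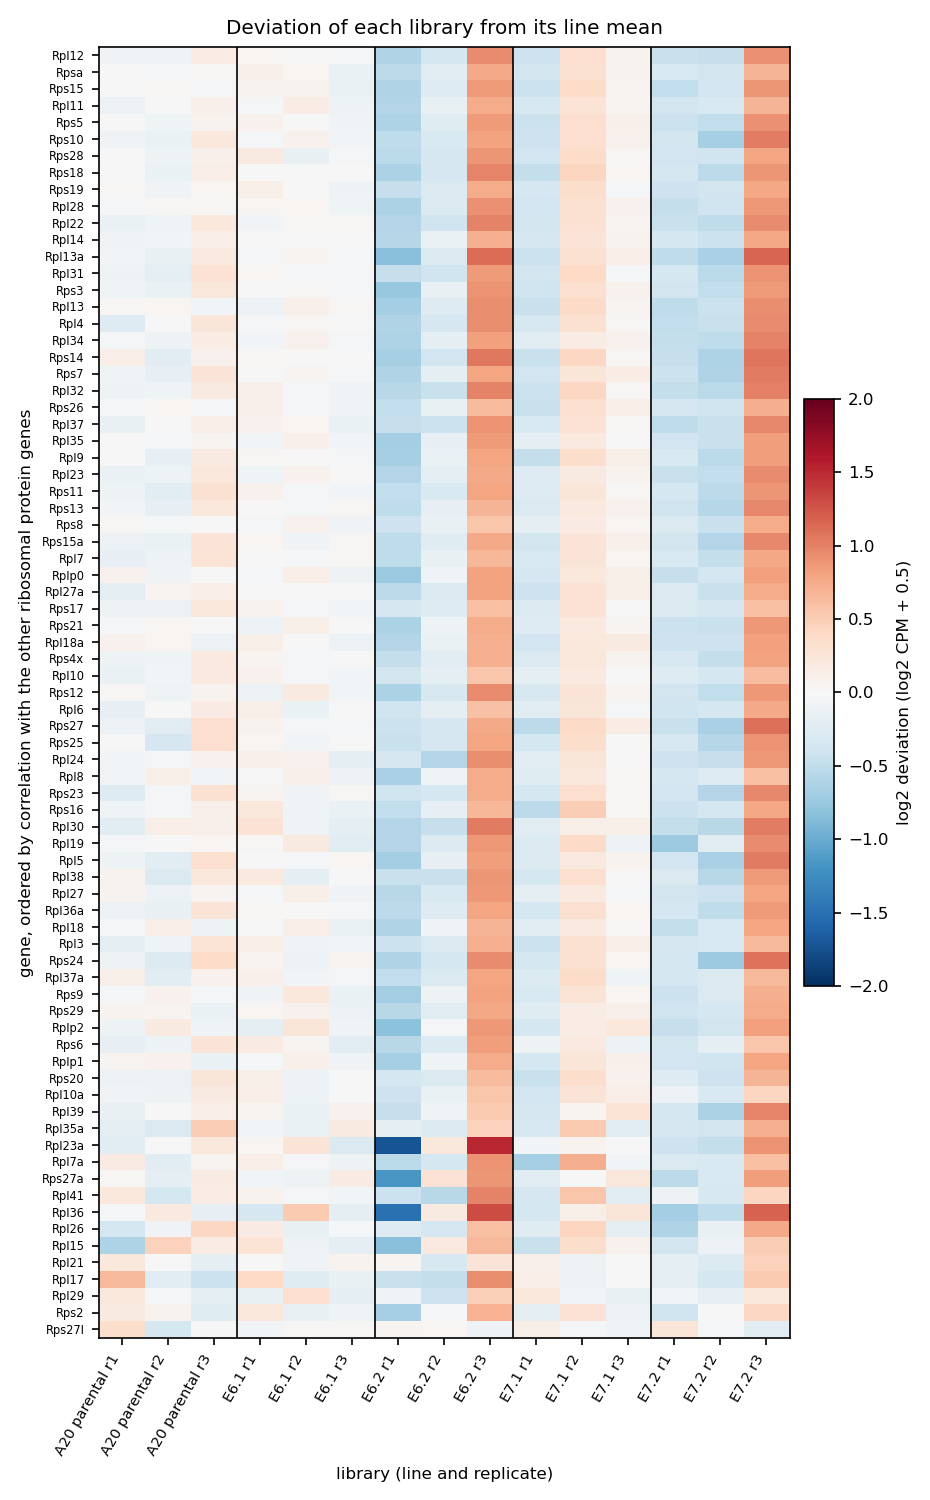
Log2 deviation of each tested gene in each library from the gene's mean in its own line (colour; pseudocount 0.5 CPM), genes in rows ordered by their correlation with the other genes, libraries in columns. The third replicates of E6.2 and E7.2 are high in nearly every row, replicate 1 of E6.2 is low in most, and Rps27l, in the lowest row, follows neither.

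Most other mRNAs with a TOP tract on a fixed list of 20 were also high in both high libraries. In replicate 3 of E6.2, 19 of them lay above both other libraries of the line (95%, against 40.8% of all tested genes). In replicate 3 of E7.2, 17 did (85%, against 45.3%). The median ratios were 2.14 and 2.04. Over the 15 libraries, 10 of the 20 had an r above 0.9 with the median of the ribosomal protein genes (median 0.88). Eef1a1, the elongation factor that brings tRNA to the ribosome, had 11731, 12485 and 33420 CPM in E6.2 and 16711, 16259 and 44068 in E7.2, against 13837 to 17256 in parental cells. Eef2, the factor that moves the ribosome along, had 2402, 3615 and 8392 CPM in E6.2 and 3415, 3812 and 9094 in E7.2. Hnrnpa1, a splicing factor, was lowest in ratio on this list, at 1.06 in E6.2 and 0.855 in E7.2. Of 13 genes of the mTOR arm, 5 (38.5%) and 3 (23.1%) lay above both other libraries, against the same 40.8% and 45.3% of all tested genes. Their median ratios were 1.05 and 0.892. The lists were chosen with earlier results of these data known.

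Against the parental line, the median fold change of the ribosomal protein genes lay close to that of all genes in E6.1 and E7.1. It lay above that of all genes in E6.2 and E7.2. All these comparisons share the 3 parental libraries. E6.1 had a median log2 fold change of 0.11 over the 77 genes, with 59 positive (76.6%, against 49.9% of all genes). E6.2 had one of 0.30, with 72 positive (93.5%, against 56.7%). E7.1 had a median of -0.08, with 21 positive (27.3%, against 47.8%). E7.2 had one of 0.60, with 76 positive (98.7%, against 50.4%). The medians over all genes tested lay between -0.02 and 0.06. Without both high libraries, the median was -0.23 in E6.2, with 7 genes positive, and 0.07 in E7.2, with 60 positive. Both lines were left with 2 libraries in that fit. The 40S and 60S medians were 0.15 and 0.09 for E6.1, 0.27 and 0.34 for E6.2, -0.06 and -0.10 for E7.1, and 0.60 in both subunits for E7.2.

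**Figure D4:**
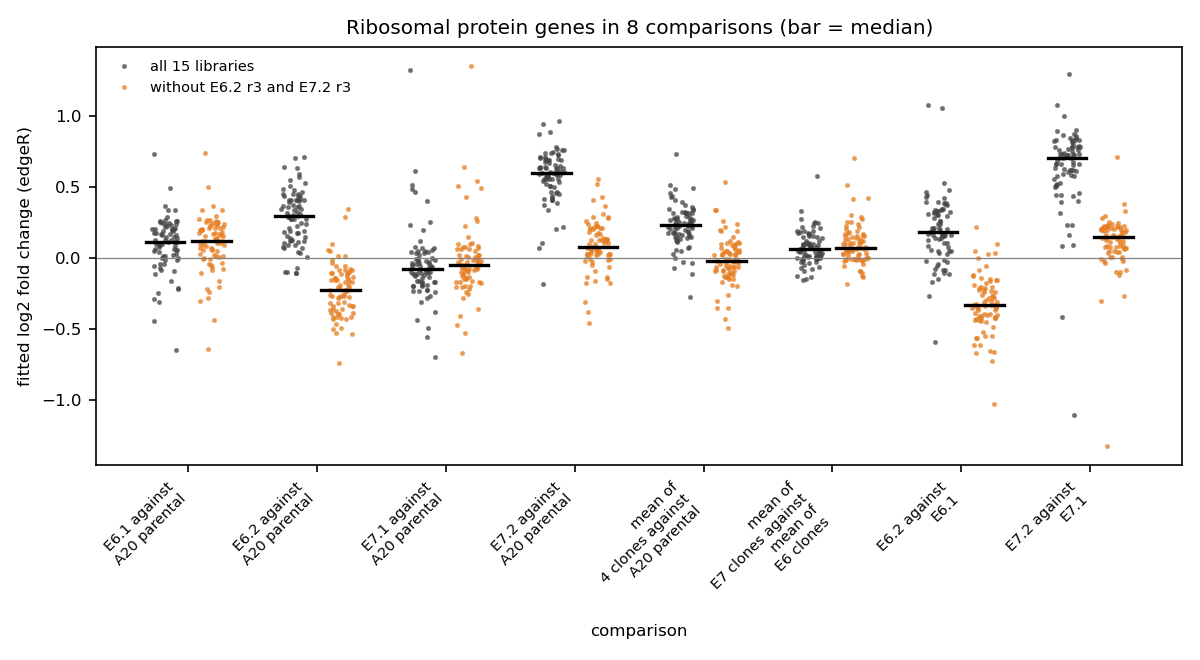
Fitted log2 fold changes of the 77 tested genes in 8 comparisons, with all 15 libraries (grey) and without both high libraries (orange); 1 point per gene, bars are medians. In E6.2 against parental cells the median goes from 0.30 to -0.23, in E7.2 from 0.60 to 0.07, and in E6.1 and E7.1 it goes from 0.11 to 0.12 and from -0.08 to -0.05.

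Rps2 in E7.1 was the only call among the 77 genes in the 4 clones. In E6.1, 0 genes were called, against 0.324% of all genes tested. In E6.2, 0 genes were called, against 1.17%. In E7.1, 1 gene was called (Rps2), against 1.22%. In E7.2, 0 genes were called, against 0.295%. DESeq2's Wald test also called Rps2 alone in E7.1 and 0 genes in the other clones. At an unadjusted p under 0.05, edgeR had 1 gene in E6.1 (background 6.71%) and 0 in E6.2 (13.1%). E7.1 had 2 (20%) and E7.2 had 5 (13.3%). The standard error of a log2 fold change had a median of 0.37 over these genes, with the spread of all 5 lines pooled. A difference of the size of the medians above was therefore not detectable gene by gene at this replication.

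In E6.1, Rpl26 had the highest fold change and Rpl36 the lowest. Rpl26, a 60S protein known to bind the Trp53 mRNA, had 147, 180 and 252 CPM in parental cells and 360, 288 and 315 in E6.1. The groups did not overlap, and the log2 fold change was 0.73 (SE 0.34, adjusted p = 0.738). Rps2 (0.50) and Rpl32 (0.36) were the next highest. Rpl36 had 137, 159 and 124 CPM in parental cells and 68.3, 124 and 75.4 in E6.1, with a log2 fold change of -0.65 (SE 0.56, adjusted p = 0.948). Rpl23a (-0.44) and Rpl17 (-0.31) were the next lowest. All 3 E6.1 libraries lay above all parental libraries for 12 genes (15.6%, against 11.3% of all genes) and below for 3 (3.90%, against 11.2%).

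In E6.2, the highest fold changes were those of Rpl26 (0.71, SE 0.34, adjusted p = 0.392), Rpl32 (0.71) and Rps14 (0.64). Rpl26 had 253, 239 and 456 CPM in E6.2. Rpl32 had 1132, 1144 and 1364 CPM in parental cells and 1191, 1273 and 3480 in E6.2. Rps14, a 40S protein whose loss underlies the anaemia of a human myelodysplastic syndrome, had 716, 561 and 692 CPM in parental cells and 560, 681 and 1837 in E6.2. The groups overlapped for all 3 genes. Without replicate 3 of E6.2 the log2 fold change was 0.37 for Rpl26, 0.041 for Rpl32 and -0.063 for Rps14. The lowest were Rps20 (-0.11), Rpl39 (-0.10) and Rpl17 (-0.10). For 0 genes did the groups not overlap, against 6.13% of all genes on the high side and 8.61% on the low side. Without its replicate 3, both E6.2 libraries left lay below all parental libraries for 22 genes (against 16.5% of all genes) and above for 0 (against 14.7%).

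In E7.1, the lowest fold changes were those of Rpl23a (-0.70, SE 0.55, adjusted p = 0.505), Rps27a (-0.56) and Rpl17 (-0.50). Rps27a, which encodes ubiquitin fused to a 40S protein, had 1493, 1302 and 1656 CPM in parental cells and 853, 1006 and 1168 in E7.1, without overlap and at an adjusted p of 0.485. The highest were Rps2, Rpl29 (0.62, adjusted p = 0.445) and Rpl26 (0.52, adjusted p = 0.415). Rpl29 was at 0.408 to 0.695 CPM in parental cells and 0.686 to 1.02 CPM in E7.1. All E7.1 libraries lay above the parental ones for 2 genes, Rps2 and Rps27l (2.60%, against 16.4%), and below for 4, Rps27a, Rpl39, Rpl30 and Rpl23a (5.19%, against 15.6%).

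In E7.2, the highest fold changes were those of Rpl26 (0.96, SE 0.34, adjusted p = 0.285), Rpl32 (0.95, adjusted p = 0.376) and Rps10 (0.89, adjusted p = 0.368). Rpl26 had 229, 312 and 588 CPM in E7.2, and Rpl32 had 1474, 1414 and 4136. Rps10, a 40S protein, had 437, 416 and 529 CPM in parental cells and 575, 467 and 1515 in E7.2. Without replicate 3 of E7.2 the log2 fold change was 0.52 for Rpl26, 0.29 for Rpl32 and 0.21 for Rps10. The lowest were Rpl17 (-0.18), Rps27l (0.07) and Rpl21 (0.11). All E7.2 libraries lay above all parental libraries for 15 genes (19.5%, against 10.8%) and below for 0 (against 13.3%). Among the 15 were Rpsa, Rps19, Rpl11 and Rpl32. Without replicate 3 of E7.2, 15 genes lay above (against 20.2% of all genes with 2 libraries) and 3 below (against 21.4%).

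Averaged over the 4 clones, the median log2 fold change was 0.24 against 0.01 for all genes. It was -0.02 without the pair of high libraries. In this average, 0 genes were called by edgeR, against 0.503% of all genes, and 0 by DESeq2, with 1 at an unadjusted p under 0.05 (Rpl26, background 9.90%). Rpl26 had a log2 fold change of 0.73 (SE 0.28, adjusted p = 0.408). The 12 clone libraries had 227 to 588 CPM, against 147 to 252 CPM in parental cells. For 0 genes did all clone libraries lie above all parental ones (against 0.568%) or below them (against 0.885%).

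Rps2 (ENSMUSG00000044533, chromosome 17, 24718116 to 24721929) encodes a 40S protein near the mRNA entry channel. It had 36.8, 33.8 and 27.1 CPM in parental cells, 53.5, 41.1 and 43.2 in E6.1 and 17.5, 27.6 and 46.0 in E6.2. In E7.1 it had 71.3, 99.1 and 74.8 CPM, above all 12 other libraries, and in E7.2 27.9, 36.8 and 49.2. It rose in E7.1 with a log2 fold change of 1.33 (SE 0.29, adjusted p = 0.0464). The adjusted p ranged from 0.000934 to 0.752 over 28 alternatives, of which 15 called it. With the replicate number as a block it was 0.0523. Leaving out 1 library at a time lost the call for 11 of the 15 libraries (adjusted p up to 0.236), all but replicate 1 of the parental line, replicates 1 and 3 of E6.2 and replicate 3 of E7.2. The other clones had log2 fold changes of 0.50 (E6.1, adjusted p = 0.847), -0.10 (E6.2, adjusted p = 0.899) and 0.22 (E7.2, adjusted p = 0.742).

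Rps2 itself held fewer counts than the pseudogenes named after it. The pseudogenes named after Rps2 together had 307, 304 and 655 CPM in parental cells, 274, 311 and 330 in E6.1 and 327, 681 and 648 in E6.2. E7.1 had 241, 330 and 335 CPM and E7.2 had 303, 946 and 502 CPM. Most of this was Rps2-ps13 (chromosome X, 52898588 to 52899469). When these counts were added to the gene, Rps2 stood at 455 ± 197 CPM in parental cells and 384 ± 62.5 in E7.1 (SD, n = 3). The log2 fold change was then -0.25 with an adjusted p of 0.752. The sums ran from 338 to 682 CPM in parental cells and from 312 to 429 in E7.1. The highest parental sum was that of replicate 3, where Rps2-ps13 had 580 CPM, against 194 and 193 in replicates 1 and 2. The sign of this fold change without that library was not tested. The value of Rps2 itself is therefore uncertain in direction.

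**Figure D5:**
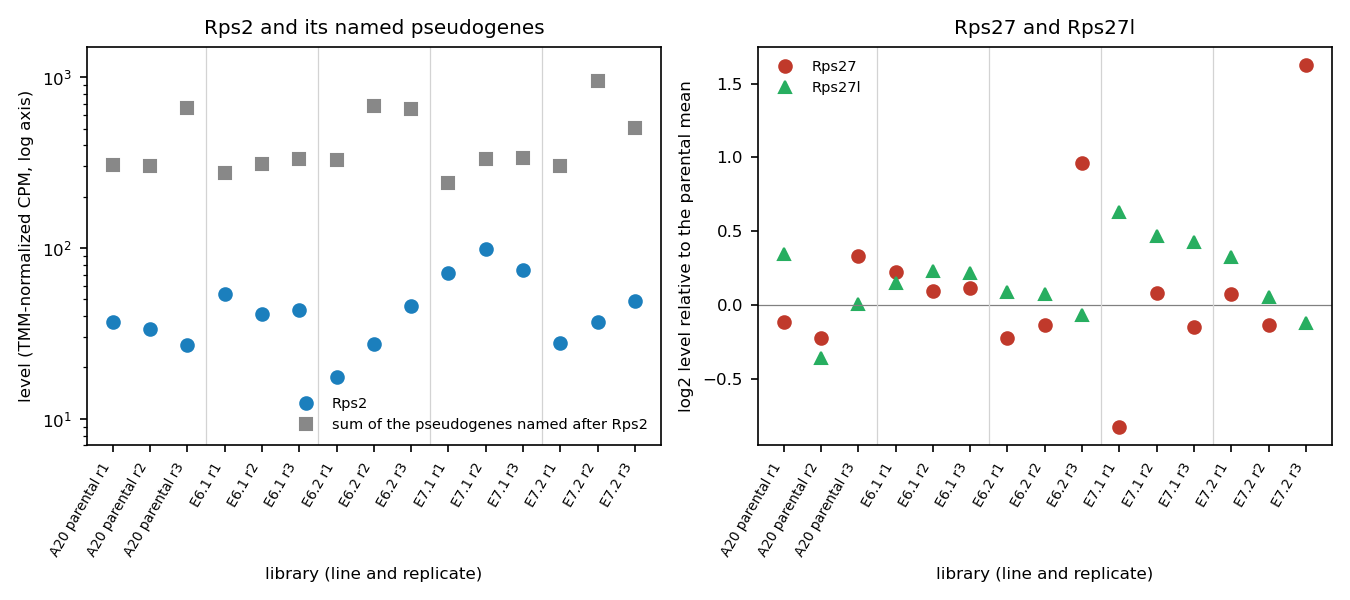
Left, CPM of Rps2 (circles) and of the pseudogenes named after it (squares, summed) in each library on a log axis; right, log2 level of Rps27 (circles) and Rps27l (triangles) relative to the parental mean. Rps2 is highest in the 3 E7.1 libraries (71.3 to 99.1 CPM), which the squares are not, and Rps27l stays flat where Rps27 is high, in the third replicates of E6.2 and E7.2.

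Rps27l (ENSMUSG00000036781, chromosome 9, 66946086 to 66949516) did not follow the other genes. It is a paralog of Rps27 known as a p53 target. It had 148, 90.5 and 117 CPM in parental cells, 129, 136 and 135 in E6.1 and 124, 122 and 111 in E6.2. It had 180, 161 and 156 CPM in E7.1 and 145, 121 and 107 in E7.2. Its r with the median of the other genes over the 15 libraries was -0.44, the lowest of the 77, and its SD between replicates of 0.20 was also the lowest. Rps27 itself went from 1035 and 1103 to 2352 CPM within E6.2 and from 1273 and 1104 to 3727 CPM within E7.2, with an r of 0.96.

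All 3 E7.1 libraries lay above the parental ones for Rps27l, with a log2 fold change of 0.49 (SE 0.16, adjusted p = 0.119, and 0.0226 to 0.412 over the 28 alternatives). It passed the threshold without replicate 1 of the parental line (adjusted p = 0.0226) and without replicate 3 of both E6.2 and E7.2 (adjusted p = 0.0370). The next lowest r values were those of Rps2 (0.19), Rpl29 (0.48), Rpl17 (0.61) and Rpl21 (0.64).

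Between the E7 and E6 clones, the median of the list lay close to that of all genes. The median log2 fold change of E7 over E6 was 0.06 against -0.03 for all genes, and 0.07 without the pair of high libraries. Of the 77 genes, 0 were called by edgeR, against 12.1% of all genes tested, and 1 had an unadjusted p under 0.05 (background 30.3%). That gene was Rps2 (0.58, SE 0.21, adjusted p = 0.0787), which DESeq2 called (adjusted p = 0.0339). No gene had all 6 E7 libraries on one side of all 6 E6 libraries, against 1.81% and 1.75% of all genes on the high and the low side.

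Clones with a mutation in the same exon were also compared with each other. E6.2 had a median log2 fold change of 0.18 over E6.1, and -0.33 without both high libraries. Here 0 genes were called by edgeR (against 1.24%) and 0 by DESeq2, with 0 at an unadjusted p under 0.05 (background 12.9%). All E6.2 libraries lay above all E6.1 libraries for 0 genes (against 7.34%) and below for 1 (against 10.2%). E7.2 had a median of 0.70 over E7.1, and 0.14 without the pair. Here 0 genes were called by edgeR (against 0.590%), with 10 at an unadjusted p under 0.05 (background 13.3%), 8 of them higher in E7.2. The largest of these were Rpl23a (1.30, SE 0.55), Rpl30 (1.08, SE 0.44) and Rps27 (1.00, SE 0.43). Without replicate 3 of E7.2 they had log2 fold changes of 0.71, 0.38 and 0.23. Rps2 (-1.11, SE 0.29, adjusted p = 0.154) and Rps27l (-0.42, SE 0.16, adjusted p = 0.316) were the 2 that were lower. DESeq2 called Rps2 (adjusted p = 0.0196) and 0 others. All E7.2 libraries lay above all E7.1 libraries for 5 genes (6.49%, against 12.4%) and below for 2 (2.60%, against 12.7%).

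Genes with well known roles of their own mostly went with the rest. These 11 genes were Rpl5 and Rpl11, which bind Mdm2 when ribosome assembly fails, Rps6, the substrate of S6 kinase, Rpl13a, Rps19, which is mutated in Diamond-Blackfan anaemia, Rplp0 of the stalk, Rpl10, Rps27a, Rpl22, Rpl38 and Rpsa. Their levels in parental cells ran from 119 (Rps19) to 1113 (Rpsa) CPM per kb, and their r with the other genes from 0.82 (Rps27a) to 0.99 (Rpsa). Rps27a followed less closely, with an SD of 0.31 once centred. Over the 4 clones their log2 fold changes against parental cells ran from -0.56 (Rps27a in E7.1) to 0.76 (Rps19 in E7.2), and the lowest adjusted p was 0.364.

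Rps6 had 1323, 1383 and 1772 CPM in parental cells, 1983, 1838 and 1533 in E6.1 and 1034, 1252 and 2698 in E6.2. E7.1 had 1376, 1688 and 1381 CPM and E7.2 had 1697, 1916 and 3227 CPM. Rpl11 had 707, 767 and 824 CPM in parental cells, 789, 901 and 753 in E6.1 and 580, 784 and 1461 in E6.2. E7.1 had 591, 890 and 764 CPM and E7.2 had 869, 903 and 1788 CPM. Both showed the low replicate 1 and the high replicate 3 of E6.2. The stalk genes Rplp0, Rplp1 and Rplp2, whose proteins recruit the elongation factors, had log2 fold changes from -0.29 to -0.05 in E6.1 and from -0.07 to 0.18 in E6.2. The values were -0.19 to -0.14 for E7.1 and 0.34 to 0.54 for E7.2, and the lowest adjusted p was 0.525. Without both high libraries the E7.2 values were 0.030 for Rplp0, -0.13 for Rplp1 and 0.031 for Rplp2, and the E6.2 values were -0.39, -0.53 and -0.37.

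Of 3 paralog pairs, the widely expressed gene held nearly all counts. Rpl3 had 2141 to 2958 CPM in parental cells, where Rpl3l had 0 to 4 counts. Rpl10 had 915 to 1144 CPM and Rpl39 had 896 to 1091 CPM in parental cells, where Rpl10l and Rpl39l had 0 counts. With 0 counts, a level of up to 0.118 CPM in the shallowest library was not detectable.

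For 5 genes the named pseudogenes held more counts than the gene itself. Over the 15 libraries, Rpl17 had a mean of 57.8 CPM with 827 CPM on its pseudogenes, Rpl23a 68.4 with 305, Rpl35a 95.5 with 103, Rps2 45.7 with 433, and Rpl21 8.34 with 92.0. For Rpl17 the sign of the fold change turned in all 4 clones when these were added, from -0.31 to 0.49 for E6.1, from -0.10 to 0.62 for E6.2, from -0.50 to 0.017 for E7.1 and from -0.18 to 0.68 for E7.2. None of these values was called.

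For Rpl15, a 60S protein, the sum of gene and pseudogenes varied less between parental libraries than the gene alone. Rpl15 had 295, 619 and 499 CPM there, and its pseudogenes 281, 2.72 and 76.9 CPM. Their sums were 576 to 622 CPM, with a mean of 591 ± 26.6 (SD, n = 3), where the gene alone had an SD of 164. In the 12 clone libraries these pseudogenes had 1.85 to 13.5 CPM. Rpl15 was singled out after its values were seen.

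Other genes of ribosomal proteins lie outside the symbol rule. Rack1, a scaffold protein on the 40S subunit, had 1707, 2044 and 4436 CPM in E6.2 and 2079, 1961 and 5315 in E7.2, so that replicate 3 stood above both other libraries in each line. Rpl7l1, a paralog of Rpl7, did not do so in either line, with ratios to the mean of the other two libraries of 0.747 in E6.2 and 1.02 in E7.2. Rpl22l1, the paralog of Rpl22, had 272, 322 and 428 CPM in parental cells, 306 to 373 in E6.1 and 211 to 479 in E6.2. E7.1 had 133 to 236 CPM and E7.2 had 165 to 337 CPM. It was not called in E7 over E6 (adjusted p = 0.0665).

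Of the 20 other TOP mRNAs, 0 were called in any of the 8 comparisons by edgeR or DESeq2, against 0.295% to 12.1% of all genes by edgeR. At most 2 had an unadjusted p under 0.05 in a comparison (edgeR), against 6.71% to 30.3% of all genes. Their median log2 fold change was 0.07 for E6.1 and 0.16 for E6.2, and -0.17 for E7.1 and 0.32 for E7.2. The lowest adjusted p over the 8 comparisons was 0.221. Of the 13 genes of the mTOR arm, edgeR called 1 in E7 over E6, against 12.1% of all genes. It called 0 in the other comparisons, against 0.295% to 1.24%. At an unadjusted p under 0.05 (edgeR), 4 of the 13 passed in E6.2 (background 13.1%) and 4 in E7.2 (13.3%). The mean of the clones (9.90%) and E7.2 over E7.1 (13.3%) also had 4. E7 over E6 had 5 (30.3%), E7.1 had 3 (20%), E6.1 had 1 (6.71%) and E6.2 over E6.1 had 0 (12.9%). DESeq2, whose share over all genes is not given here, called 2 in E7 over E6 (Eif4ebp2 and Eif4g1), 1 in E6.2 (Mlst8) and 1 in E7.1 (Eif4g1). Eif4g1, the scaffold of the cap-binding complex, had 331 to 479 CPM in E6.1 and 327 to 343 in E6.2. E7.1 had 583 to 918 CPM and E7.2 had 383 to 575 CPM, against 308 to 456 CPM in parental cells. It was higher in E7 than in E6 clones, with a log2 fold change of 0.73 (SE 0.16, adjusted p = 0.0132). Larp1, which binds the TOP tract, had 355 to 462 CPM in all 15 libraries.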

How the data were processed

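RNA from 15 A20 libraries was sequenced on an Illumina HiSeq instrument. The authors aligned read pairs with HISAT to GRCm38 and deposited, per library, raw counts per gene from featureCounts 1.5.0, without strand, multi-mapping pairs or pairs that overlapped several genes. Listed spike-ins had a total count of 0. Lines came from the labels. Counts were analysed in R 4.3.3 with edgeR 4.0.16 (filterByExpr, TMM factors, quasi-likelihood fit on all 15 libraries with line as the only factor, limma 3.58.1 as its base). Genes with a Benjamini-Hochberg adjusted p under 0.05 over the 13904 genes tested were called, with no limit on fold. Levels are TMM-normalized CPM, log2 values use a pseudocount of 0.5 CPM, and lengths come from the exons in the deposited tables. The scripts were tested on simulated data. The genes described and the lists were chosen with earlier results of these data known. Genes were named if they were called, were among the 3 highest or lowest in fold change against the parental line or in level per kb, had 1 of the 3 largest SDs between replicates, belonged to a paralog pair, had a known role of their own or did not pass the filter. Genes of other lists were named if called or at the ends of their list. Other genes were named after their values were seen. The 8 comparisons were repeated under 13 alternatives, DESeq2 1.42.0 among them, and without each of the 15 libraries. Total counts were 26328054 to 39181530 per library, so counting error was small beside the spread between replicates. A list of other ribosomal protein genes is not reported here as a whole.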

Additional observations from a re-analysis of the deposited data

Results flagged for a closer look

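Eif4g1 and Foxp1 differed between the E7 and the E6 clones by a test of that difference, in a comparison that called 12.1% of all genes tested. Eif4g1 was higher in the E7 clones, with a log2 fold change of 0.73 (SE 0.16, adjusted p = 0.0132, edgeR), and Foxp1 was lower, with a log2 fold change of -1.09 (SE 0.14, adjusted p = 0.000609). Of the marker genes, Cd79a (1.08, adjusted p = 0.0037) and Ms4a1 (0.44, adjusted p = 0.0407), both of the B lineage, were also called higher in the E7 clones by edgeR. Pdgfrb, a stromal marker at 0.00 to 0.763 CPM in all 15 libraries, was called lower (adjusted p = 0.00375).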

How the results depend on the processing

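The median fold changes and the counts of calls were recomputed under 13 alternatives and without each of the 15 libraries. Leaving out both high libraries (E6.2 replicate 3, E7.2 replicate 3) changed the median log2 fold change to -0.23 in E6.2, 0.074 in E7.2, -0.33 in E6.2 over E6.1 and 0.14 in E7.2 over E7.1. It gave 2 called genes in E7.1 (Rps2 and Rps27l), 2 in E7 over E6 (Rps2 and Rps29) and 1 in each comparison within an exon (Rps2). The share of all genes called is not given here for this fit or the alternatives below. With all 15 libraries, edgeR called 1.22% of all genes in E7.1 and 12.1% in E7 over E6. The shares were 1.24% in E6.2 over E6.1 and 0.590% in E7.2 over E7.1. Leaving out 1 library at a time, the median ranged from -0.20 to 0.55 in E6.2, 0.075 to 0.83 in E7.2, -0.30 to 0.42 in E6.2 over E6.1 and 0.15 to 0.92 in E7.2 over E7.1, and the count of called genes from 0 to 2 in E7.1, from 0 to 1 in E7 over E6 and from 0 to 1 in E7.2 over E7.1, the last 2 only without replicate 3 of E6.2. DESeq2's Wald test and edgeR's likelihood ratio test each called 1 gene in E7 over E6 and 1 in E7.2 over E7.1, and 1 was called there with no filter on low counts.

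Adding the named pseudogenes left 0 calls in E7.1 and raised the share of counts to 7.47% in parental cells and 8.18% in E6.1. It reversed Rps2 in E7.1 (-0.25), E6.2 (0.36), E6.1 (-0.37) and E7.2 over E7.1 (0.70), and Rpl17 in the mean of the clones (0.45), E7.2 (0.68), E7.1 (0.017), E6.2 (0.62) and E6.1 (0.49). Without both replicates 3, Rpl21 in E7.2 (-0.14) and Rps14 in E6.2 (-0.086) reversed. An offset for length and GC content reversed Rps20 in E6.2 (0.13, and 0.037 with the replicate block as well) and Rps27a in the mean of the clones (0.051). Leaving out 1 library reversed Rpl17 in E6.1 (-0.54 to 0.091), E6.2 (-0.71 to 0.30), E7.2 (-0.46 to 0.25) and the mean of the clones (-0.47 to 0.14), Rpl21 in E7.2 (-0.14 to 0.25), Rpl39 in E6.2 (-0.40 to 0.084) and the mean of the clones (-0.22 to 0.0035), and, in E6.2, Rps14 (-0.063 to 0.92), Rps2 (-0.51 to 0.16) and Rps20 (-0.48 to 0.052), and Rps27l in E7.2 (-0.087 to 0.29). The cause of these changes was not tested beyond what each alternative removes or adds. Foxp1 was not called in E7.1 with the offset (adjusted p = 0.0675) or in E7.2 when only that line and the parental line were fitted (adjusted p = 0.0538, edgeR).

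Over 9 of the 10 pairs of lines, libraries with the same replicate number did not all deviate together (correlations over tested genes from -0.17 to 0.26). E6.2 and E7.2 did, with correlations of 0.21, 0.29 and 0.45 for replicates 1, 2 and 3. These lines were compared with each other only within the means of the E7 and E6 clones, and no comparison with the parental line or within an exon met the limit of 0.1 for each number, so the numbers were not taken to pair the samples there. With the replicate block, 0 genes were called in E7.1, and the median log2 fold changes were 0.50 in E7.2, -0.08 in E7.1, 0.21 in E6.2 and 0.14 in E6.1, and 0.051 in E7 over E6, where 0 genes were called. Counting error was small beside the spread between replicates for these genes, apart from Rpl29 and the 3 that were not tested. What set that spread was not tested. For genes such as Rps2 and Rpl17, leaving out multi-mapping pairs also made the values uncertain.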
